A study of Mus musculus with 12 samples.

Results

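Cluster 10 of the embryonic mouse cortex holds nuclei that the study took as likely late interneuron precursors. All nuclei that the authors assigned to Cluster 10 were taken, 2430 of 50550 nuclei (4.81%), of which 1597 came from saline and 833 from EtOH embryos. The embryos were C57BL/6J mice whose dams received saline or 2.5 g/kg EtOH by intraperitoneal injection, 6 times at 1 injection a day from embryonic day 8 to 13, and cortices were collected on embryonic day 14. The labels name no allele, transgene or sort, and every embryo, control embryos included, came from an injected dam. The labels give 6 saline and 6 EtOH embryos, of which 5 saline and 6 EtOH embryos were analysed here. They were measured by single-nucleus RNA-seq, a method that counts the RNA molecules of single nuclei as unique molecular identifiers (UMIs). They came from 2 dams per treatment, and libraries were prepared in 2 batches, the first with the litters of S1 and E1 and the next with those of S2 and E2. Embryos are named by dam and number (S2-4 is the embryo numbered 4 of dam S2). Saline embryo S2-3 was not analysed here, and per the methods the authors left out 1 saline sample whose nuclei fell into the clusters in other proportions.

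Cortical interneurons are inhibitory neurons that release GABA. They are born outside the cortex, in the ganglionic eminences of the ventral forebrain, and migrate tangentially into it. Dlx homeodomain factors act in these progenitors and their daughters, where they promote the genes that make GABA and the move away from division. Late precursors are cells at that passage, and they may carry RNA of both dividing cells and young neurons. Medial eminence derivatives are marked by Nkx2-1, Lhx8 and Lhx6, caudal and lateral derivatives by Prox1, Nr2f2, Sp8, Meis2 and Isl1.

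Some genes that act in mitosis carry short promoter elements known from cell cycle control. They are shown because RNA of the mitosis list, summed to 5730 ± 792 CPM in Cluster 10 and 812 in Cluster 5 (UMIs per 1000000 UMIs), is used further on to divide the nuclei. The promoters of 4 members, each of which holds both elements as do 13 of the 38 list genes with a promoter in the table, are given as the 250 bases before the start of the gene, written 5′ to 3′ on the strand of the gene (RefSeq, GRCm38.p6). Capitals mark the letters of the cell cycle homology region (CHR, TTTGAA, or TTCAAA on the other strand) and of the CCAAT box (CCAAT, or ATTGG on the other strand). The first is Top2a, a topoisomerase that untangles chromosomes, at chr11:99024190-99024439 on the minus strand. Mki67, the gene of the Ki-67 proliferation antigen, is at chr7:135716380-135716629, Ccnb2, a mitotic cyclin, is at chr9:70421555-70421804, and Cdc20, an activator of the anaphase complex, is at chr4:118437344-118437593, all on the minus strand.
Top2a: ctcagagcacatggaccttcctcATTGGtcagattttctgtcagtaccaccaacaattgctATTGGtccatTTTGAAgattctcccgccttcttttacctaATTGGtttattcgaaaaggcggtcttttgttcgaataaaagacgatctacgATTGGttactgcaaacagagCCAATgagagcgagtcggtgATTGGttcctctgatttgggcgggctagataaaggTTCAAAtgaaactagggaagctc
Mki67: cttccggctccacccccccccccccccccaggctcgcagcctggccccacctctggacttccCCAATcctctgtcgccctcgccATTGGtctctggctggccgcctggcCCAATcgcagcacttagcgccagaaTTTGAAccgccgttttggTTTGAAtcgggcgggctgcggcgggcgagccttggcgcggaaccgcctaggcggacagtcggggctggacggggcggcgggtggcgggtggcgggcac
Ccnb2: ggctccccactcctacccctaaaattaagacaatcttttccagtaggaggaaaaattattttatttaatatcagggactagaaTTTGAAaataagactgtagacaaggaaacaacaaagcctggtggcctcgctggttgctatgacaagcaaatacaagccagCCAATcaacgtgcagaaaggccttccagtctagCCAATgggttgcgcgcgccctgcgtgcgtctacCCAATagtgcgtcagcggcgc
Cdc20: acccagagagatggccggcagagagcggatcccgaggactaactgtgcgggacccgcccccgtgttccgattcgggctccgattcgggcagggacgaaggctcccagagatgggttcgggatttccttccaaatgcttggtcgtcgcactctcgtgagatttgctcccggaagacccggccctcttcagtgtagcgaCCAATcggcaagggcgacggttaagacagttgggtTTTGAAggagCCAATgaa

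The Top2a stretch held 2 CHR and 6 CCAAT matches, and that of Mki67 held 2 and 3. Ccnb2 had 1 CHR and 3 CCAAT matches, and Cdc20 had 1 and 2. Of 27025 RefSeq promoters of this length, 16.3% held a CHR match, 34.5% a CCAAT match and 5.73% both. Of the 38 mitosis list genes with a promoter in the table, 39.5% held a CHR match, 73.7% a CCAAT match and 34.2% both. These matches describe letters in a window and were not tested as sites.

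Each embryo gave 55 to 442 Cluster 10 nuclei with 443830 to 3476526 UMIs in all, and the median nucleus held 5507.5 UMIs. Saline embryos were deeper, with median UMIs per nucleus of 5068 to 6657 against 2767.5 to 5061 in EtOH embryos, of which E1-1 was the lowest. No Cluster 10 barcode occurred in more than 1 embryo, while 314 barcodes over all clusters did. Littermates were taken as independent, so the p-values measure the spread between embryos, and each treatment rests on 2 dams. Fewer nuclei of one kind and less RNA per nucleus cannot be told apart in sums over the cluster. Doublets were not called, and the largest nucleus held 93872 UMIs.

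2 saline embryos stood apart before any comparison. In S2-2, Cluster 10 was 1.28% of nuclei, while it was 5.72% to 6.28% in the other saline embryos. On the first principal component of the summed counts, S2-4 lay at −9.14, within the EtOH range of −16.8 to −7.50, while the other saline embryos lay between 15.7 and 20.6. Its Malat1 level, a nuclear RNA, was 13448 CPM (UMIs of the gene per 1000000 Cluster 10 UMIs of the embryo) against 10163 to 11333 in the other saline embryos and 11752 to 14877 in EtOH embryos. Summed ribosomal protein RNA was 1633 to 1885 CPM in S1-1, S1-2 and S2-1, 2629 in S2-2, 2583 in S2-4 and 2199 to 2588 in EtOH embryos. Between littermates the counts differed by a mean chi-square per gene of 10.7 for S2-1 and S2-4 and of 1.96 to 2.81 for the other pairs. This value is not scaled for depth and can grow with it, and S2-1 and S2-4 held 3312608 and 3476526 UMIs. The pair nearest in depth, S1-1 and S1-2 with 3470829 and 2306594 UMIs, was at 2.27. Every remaining pair had an embryo with fewer UMIs than these. S2-4 lay above every EtOH embryo in its Cluster 10 share, 5.99% against 5.13% at most, and in its number of nuclei, 7215 against 4928 at most. S2-4 also had the lowest median UMIs per nucleus of the saline embryos, 5068, next to the EtOH maximum of 5061. The other saline embryos were at 5470 to 6657, so the first component divided the embryos by depth as well. The part of depth in it was not tested. Whether S2-4 carries the right treatment label was not tested, and each count of calls rests on it as labelled. Results that rest on either embryo are given with and without it.

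The levels of the label's markers were compared across clusters first. Since the clusters were made from these genes, the levels are a description, with no test. Dlx6os1 (chr6:6820189-6871592, minus strand, GRCm38), a long non-coding RNA that overlaps Dlx6 on the opposite strand, was at 4077 ± 622 CPM (SD, n = 11) with a range of 2742 to 4842, the highest of the 25 clusters. Cluster 23, interneurons rich in Erbb4, came next at 3803 ± 451 CPM, and 6 of 10 embryos were higher in Cluster 10, so the 2 clusters did not separate on this gene. Cluster 3, the earlier interneuron precursors, was at 198 ± 85.8 CPM, lower than Cluster 10 in 11 of 11 embryos.

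Dlx1 (chr2:71528113-71533981, plus strand), a homeodomain factor of the eminences, was at 252 ± 55.5 CPM, first of 25 clusters, against 98.7 ± 30.5 in Cluster 3 and 105 ± 12.2 in Cluster 5, the migrating interneurons. Dlx2 (chr2:71543408-71546754, minus strand), its neighbour and partner, was at 50.2 ± 9.96 CPM, again first, with 36.1 ± 16.6 in Cluster 23. Top2a (chr11:98992943-99024189, minus strand) was at 558 ± 93.3 CPM and ranked under Cluster 17, the mitotic intermediate progenitors, at 789 ± 109. Cluster 3 held 583 ± 77.2 CPM of Top2a, and Cluster 10 was higher in 4 of 11 embryos, so these neighbours did not differ beyond their spread. In Cluster 5, Top2a was at 61.8 ± 30.5 CPM, below Cluster 10 in 11 of 11 embryos. The 3 Dlx markers of the label thus had their highest mean in Cluster 10, Dlx6os1 without a gap to Cluster 23, and Top2a was at the level of the earlier precursors. As the clustering used these genes, this is no independent check of the label.

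**Figure D1:**
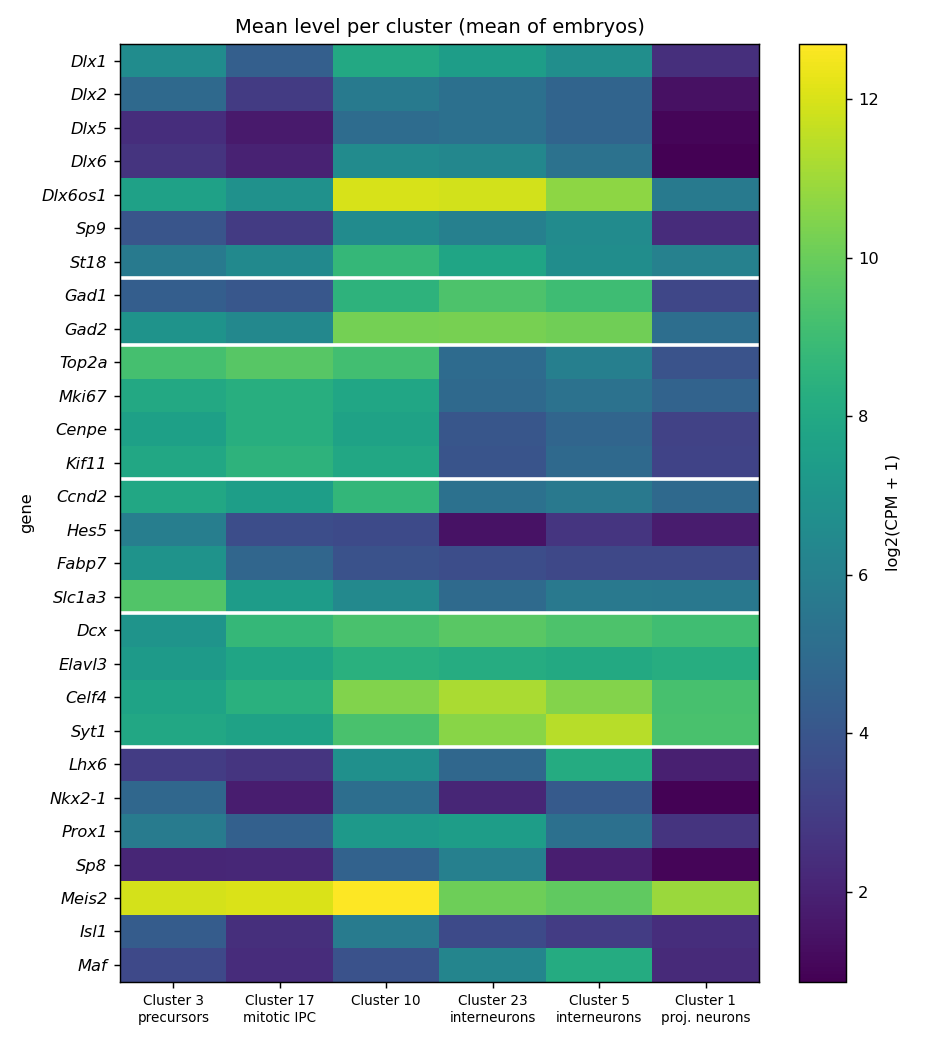
Mean level of marker genes (vertical axis) in 6 clusters (horizontal axis), as log2(CPM + 1) by colour. Cluster 10 shares Dlx6os1 and Gad2 with the interneuron Clusters 5 and 23, and Top2a and Mki67 with Clusters 3 and 17.

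The other Dlx genes and their partners were also high. Dlx6 was at 95.1 ± 24.3 CPM, first of 25 clusters, and Dlx5 at 32.4 ± 8.57 CPM, second after Cluster 23 at 36.8 ± 15.2. In Cluster 3, Dlx6 was at 5.36 ± 2.07 CPM and Dlx5 at 4.29 ± 2.31, lower than in Cluster 10 in 11 of 11 and 11 of 11 embryos. Sp9, a zinc finger factor of the eminences, was second at 94.98 ± 17.3 CPM, and St18, another zinc finger factor, first at 426 ± 111. Of the 24 genes of the Dlx and eminence list, 5 were highest in Cluster 10 and 19 ranked among the first 3 clusters.

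Of the GABA genes, Gad2 was near and Gad1 below the level of migrating interneurons. Gad2, which makes GABA, was at 1209.5 ± 143 CPM, against 1248 ± 165 in Cluster 23, 1102 ± 74.5 in Cluster 5 and 120.3 ± 22.5 in Cluster 3. Gad1 (chr2:70553072-70602014, plus strand), the other GABA synthase, was at 359 ± 42.7 CPM against 514 ± 26.4 in Cluster 5, higher in Cluster 10 in 0 of 11 embryos. Cluster 17 held 81.6 ± 28.05 CPM of Gad2 and 16.01 ± 8.60 CPM of Gad1.

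Erbb4, Nxph1 and Maf were below their levels in the migrating interneurons of Cluster 5. Erbb4, a neuregulin receptor of migrating interneurons, was at 2512 ± 559 CPM against 23026 ± 2037 in Cluster 5. Thinned to 2000 UMIs, 64.9 ± 15.7% of Cluster 10 nuclei had an Erbb4 UMI, against 31.5 ± 20.8% in Cluster 1. Nxph1, a neurexophilin, was at 272 ± 110.4 against 8070.2 ± 704 CPM, and Maf, a factor of postmitotic medial interneurons, at 13.4 ± 4.18 against 279 ± 35.97. Early neuronal genes were mixed. Celf4, an RNA-binding protein of neurons, was at 1411 ± 105 CPM, close to Cluster 5 at 1428 ± 99.3 and above Cluster 3 at 208 ± 43.8, while Syt1, a synaptic vesicle protein, was at 627 ± 219.6 against 2712 ± 225 in Cluster 5.

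Radial glia genes were lower than in Cluster 3. The 16 genes of the list summed to 2073 ± 303 CPM, rank 7 of 25 clusters, against 9147 in Cluster 3, 958 in Cluster 5 and 988 in Cluster 1. Ptprz1, a receptor phosphatase of radial glia, was at 564 ± 68.96 CPM (438 to 681). Slc1a3, a glutamate transporter of radial glia, was at 84.7 ± 27.7 CPM against 714 ± 124 in Cluster 3, with Cluster 10 higher in 0 of 11 embryos. Fabp7, a fatty acid binding protein of radial glia, was at 13.5 ± 4.31 against 121 ± 33.6 CPM, and Hes5, a Notch target, at 10.3 ± 4.16 against 60.3 ± 14.1. Ccnd2, a cyclin of the G1 phase, was at its highest of 25 clusters, 419 ± 83.5 CPM, with 249.9 ± 40.1 in Cluster 3. Cdca7, a chromatin factor of dividing cells, was also first, at 123 ± 25.4 against 64.6 ± 11.1 CPM in Cluster 3. Of the 44 mitosis genes none was highest in Cluster 10, and 16 ranked among the first 3 clusters.

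Further genes were highest in Cluster 10 by the gap to the next cluster. Of 23513 genes, 811 were highest there, of which 444 were at 20 CPM or more. Slc18a2 (chr19:59260896-59296012, plus strand), the vesicular monoamine transporter, had the largest such ratio among those 444, 4.05, at 219 ± 39.4 CPM against 54.1 in Cluster 3. It overlaps the gene Gm29261 on the other strand, as 244 of the 490 genes checked here overlap one, and the strand setting of the count, made with default and recommended parameters, is not spelled out in the sources used here. Among genes described above, Dlx1 overlaps Dlx1as and Gad1 overlaps Gad1os in the same way. Esrrg, an orphan nuclear receptor, was at 645 ± 93.97 CPM against 412 in Cluster 13. Shtn1, which couples actin to axon outgrowth, was at 648 ± 116 CPM against 434 in Cluster 1, the callosal projection neurons. Rnd3, a small GTPase of cell migration, was at 203 ± 33.6 CPM, and Nlk, a kinase that acts on Wnt signalling, at 955 ± 93.6, both first of 25 clusters.

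The members differed among themselves in mitosis RNA. Each nucleus was thinned to 2000 UMIs, which left out 35 saline and 37 EtOH nuclei, and UMIs of the 44 mitosis genes were counted in the other 2358. Of these, 1300 nuclei held at least 3, 620 held 1 or 2, and 438 held none. The share with at least 3 was 54.1 ± 5.604% over 11 embryos (45.1% to 64.7%). It was 62.7 ± 5.81% in Cluster 3, 92.3 ± 3.11% in Cluster 17, 8.75 ± 3.04% in Cluster 5 and 4.55 ± 3.72% in Cluster 1, postmitotic neurons that give the background of such a count. In Cluster 10, 19.5 ± 4.71% of nuclei held no mitosis UMI, against 51.8 ± 9.85% in Cluster 5.

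To describe what else varied with mitosis RNA, counts were summed per embryo over nuclei with at least 3 mitosis UMIs and over nuclei with none, and compared within embryos with edgeR, leaving out the mitosis genes. Both classes were cut from the counts of the same nuclei, so the calls describe how genes go together in Cluster 10. The sums of 1 class alone could meet the filter on low counts, so counts within a list favour genes high in 1 class. Of 5435 genes tested, 1436 were called (26.4%), 806 higher with mitosis UMIs (14.8%) and 630 lower (11.6%), a call being an adjusted p under 0.05 with a fold below 0.8 or above the inverse of that. The median log2 fold change of all genes tested was −0.01. On thinned counts, 626 of 2437 genes tested were called (25.7%), 325 higher (13.3%) and 301 lower (12.4%).

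Most tested DNA replication genes were higher. Of 47 listed, 28 passed the filter, and of these 26 were called higher and none lower, with a median log2 fold change of 1.69. As genes could pass through the mitosis class alone, this count and median describe the tested genes and not the list. Pole, a DNA polymerase subunit, was at 90.4 ± 19.1 against 7.46 ± 8.36 CPM with and without mitosis UMIs, a log2 fold change of 3.12 ± 0.26 (SE, adjusted p = 3.61e-11, edgeR). Clspn, a checkpoint protein at the fork, was at 139 ± 31.5 against 13.2 ± 11.7 CPM (3.46 ± 0.22). Atad2, a chromatin ATPase, was at 339 ± 52.2 against 39.05 ± 25.4 CPM (3.27 ± 0.21). Rrm2, a subunit of the enzyme that makes deoxynucleotides, was at 50.6 ± 12.7 against 4.04 ± 4.34 CPM (3.49 ± 0.32). Pole was higher in 11 of 11 embryos, Clspn in 11 of 11, Atad2 in 11 of 11 and Rrm2 in 11 of 11.

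Among 19 listed G1 cyclins and inhibitors, 11 passed the filter and 9 of these were called higher, with a median of 0.79. E2f2, a factor of the step into S phase, was at 68.5 ± 12.9 against 5.98 ± 5.73 CPM (3.64 ± 0.28). E2f7, a repressor of the same family, changed by 3.26 ± 0.22. Ccnd2 was at 467 ± 111 against 338 ± 162 CPM (0.50 ± 0.16) and higher in 9 of 11 embryos. The inhibitor Cdkn1b (p27) also rose, with 44.1 ± 7.07 against 19.6 ± 12.8 CPM (0.79 ± 0.22), higher in 11 of 11 embryos. The genes with the smallest adjusted p were Lockd, an RNA transcribed beside Cdkn1b, at 349 ± 65.7 against 17.3 ± 10.4 CPM, and Cenpp, a centromere protein, at 457 ± 73.95 against 44.00 ± 17.5. Racgap1 and Ndc80, which act in cytokinesis and at kinetochores, had log2 fold changes of 3.98 ± 0.21 and 4.87 ± 0.27.

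GABA and neuronal genes lay on the other side. Gad1 was at 255 ± 37.9 against 581 ± 125 CPM in nuclei with and without mitosis UMIs, lower in 11 of 11 embryos, a log2 fold change of −1.19 ± 0.08 (adjusted p = 5.08e-13, edgeR). Gad2 was at 1004 ± 116 against 1640.1 ± 359 CPM (−0.73 ± 0.09), and Abat, which breaks GABA down, at 83.2 ± 21.02 against 188 ± 34.8 (−1.17 ± 0.11). Of 4 GABA genes tested, 3 were called lower. The level of Gad2 in nuclei with mitosis UMIs was still above that of Cluster 3, 120.3 ± 22.5 CPM. Of 19 early neuron genes, 13 were called lower and none higher, with a median of −0.44. Dcx, a microtubule protein of migrating neurons, was at 528 ± 66.6 against 846 ± 123 CPM (−0.71 ± 0.08), and Celf4 at 1196 ± 94.03 against 1913 ± 252 (−0.72 ± 0.07).

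Dlx and eminence factors did not move as one. Of 20 tested, 1 was called higher and 9 lower, with a median of −0.34. Dlx1 was the one higher, at 282 ± 72.2 against 201 ± 60.7 CPM, a log2 fold change of 0.39 ± 0.11 (adjusted p = 0.00843, edgeR), and was higher in 9 of 11 embryos. Dlx2 had a log2 fold change of 0.39 ± 0.17 and was not called (adjusted p = 0.0980, edgeR). Lower were Dlx6os1 at 3606 ± 770.5 against 5201 ± 739 CPM (−0.59 ± 0.08), Dlx6 (−0.49 ± 0.14) and Dlx5 (−0.65 ± 0.21), so Dlx1 and the Dlx5 and Dlx6 pair went in opposite directions. St18 changed by −1.19 ± 0.15 and Isl1, a LIM homeodomain factor of striatal neurons, by −1.50 ± 0.19. Caudal factors were lower in 3 of 4 tested, Prox1 by −1.02 ± 0.12, Nr2f2 by −0.76 ± 0.14 and Nr2f1 by −0.37 ± 0.12. Of 5 medial factors tested none was called, and Lhx6 was at 105 ± 44.6 against 119 ± 74.2 CPM (−0.28 ± 0.19, adjusted p = 0.306, edgeR).

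Some progenitor genes kept to the mitosis side. Of 8 radial glia genes tested, 5 were called higher, with a median of 0.86. Gli3, a hedgehog pathway factor, was at 419.7 ± 87.6 against 165 ± 97.1 CPM (1.51 ± 0.13), and Creb5, a CREB-family factor, at 434 ± 178 against 134 ± 132 (1.91 ± 0.19). In the Notch list, the receptors Notch2 (1.63 ± 0.21) and Notch1 (0.68 ± 0.16) and the coactivator Maml2 (0.62 ± 0.17) were higher and its relative Maml3 lower (−0.76 ± 0.09), of 9 tested. In the Wnt list, Tcf7l1 (2.06 ± 0.30) and Tcf7l2 (1.91 ± 0.21), which bind the targets of the pathway, were higher and the scaffold Apc lower (−0.43 ± 0.07), with 6 higher and 3 lower of 23 tested. Of 19 interneuron migration genes, Ackr3, a scavenger of the chemokine Cxcl12, was called higher, and Nrp1, Nrp2 and Dcc, receptors of guidance cues, lower, which is 4 of 19 beside 26.4% of all genes. Of 8 apoptosis and p53 genes, 2 were called higher and 2 lower. Eomes, a marker of cortical intermediate progenitors, was at 39.3 ± 20.8 against 18.2 ± 17.01 CPM (1.07 ± 0.28). It was the only 1 of 7 tested genes of the projection neuron and intermediate progenitor list that rose. Another member was called lower, and the list median was −0.29.

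**Figure D2:**
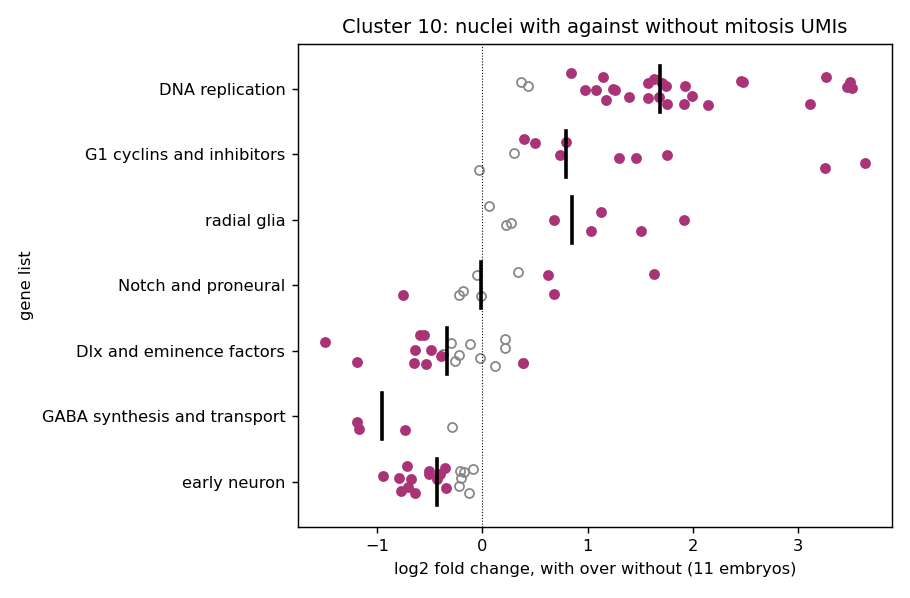
Log2 fold change (horizontal axis) of the tested members of 7 gene lists (vertical axis) between Cluster 10 nuclei with at least 3 mitosis UMIs and nuclei with none, from sums per embryo of 11 embryos. Filled points passed the test, open points did not, and black bars mark the list medians, from −0.95 for GABA genes to 1.69 for DNA replication genes.

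Cluster 10 nuclei also varied along the marks of the eminences. Lhx6 (chr2:36081953-36105408, minus strand), the homeodomain factor of medial interneurons, was at 111 ± 43.9 CPM with a range of 52.3 to 192, against 285 ± 21.5 in Cluster 5. In thinned nuclei an Lhx6 UMI was found in 13.9 ± 4.89% of nuclei (368 of 2358), against 42.6 ± 4.53% in Cluster 5, 1.16 ± 0.648% in Cluster 3 and 0.584 ± 0.796% in the callosal neurons of Cluster 1, which should lack it. A share of nuclei with a UMI is not the share that express the gene.

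Other eminence factors were found in smaller or larger shares of thinned nuclei, with Cluster 1 as background. Prox1 was found in 21.4 ± 5.36% (Cluster 1, 0.812 ± 0.755%), Nr2f2 in 12.7 ± 5.98% (3.58 ± 1.62%), Isl1 in 9.08 ± 4.03% (0.915 ± 0.713%), Nkx2-1 in 6.19 ± 4.40% (0.140 ± 0.213%) and Sp8 in 4.64 ± 1.92% (0.306 ± 0.319%). Meis2, a TALE homeodomain factor of lateral derivatives, was found in 90.99 ± 2.29%. Cluster 1, at 88.9 ± 3.44%, held too much Meis2 to serve as its background. The share was 94.8 ± 4.93% in Cluster 3 and 41.7 ± 17.1% in the migrating interneurons of Cluster 5. Of 368 nuclei with an Lhx6 UMI, 0 had an Sp8 UMI, which allows a share of up to 0.815% (counting error alone), while 98 of 1990 nuclei without one did. Nkx2-1 was found in 25.5 ± 17.2% against 2.88 ± 2.96% of nuclei with and without Lhx6, higher in 9 of 11 embryos, and Lhx8 in 27.98 ± 8.01% against 2.05 ± 1.53%, higher in 11 of 11. Meis2 was found in 68.7 ± 14.95% against 94.2 ± 2.25%, higher in 0 of 11 embryos, and Isl1 in 2.34 ± 3.24% against 10.1 ± 4.67%, higher in 1 of 11. Prox1 was found in 24.3 ± 13.7% against 20.7 ± 5.42%, higher in 8 of 11 embryos, and Nr2f2 in 10.7 ± 9.53% against 13.1 ± 6.20%, higher in 5 of 11. Top2a was found in 37.9 ± 9.57% against 38.7 ± 5.13%, higher in 5 of 11 embryos.

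A comparison of nuclei with and without an Lhx6 UMI, chosen after the data were seen, was made with edgeR in the 8 embryos that had at least 10 nuclei of each class (351 and 1828 nuclei), which left out E1-2, E2-3 and S2-2. Of 7045 genes tested, 314 were called (4.46%), 152 higher with Lhx6 (2.16%) and 162 lower (2.3%), and the median of all genes was 0.01. Lhx6 itself defined the classes and is no finding.

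Of the 11 medial factors listed, 5 were tested and 3 called higher with Lhx6. The others were Satb1, a chromatin organiser (0.19 ± 0.11), and Zeb2, a zinc finger repressor (−0.21 ± 0.09), which was lower at an unadjusted p of 0.0347 (edgeR) and not called. Sox6, which acts after Lhx6 in medial interneurons, was at 3359 ± 391 against 1190.1 ± 158 CPM with and without Lhx6, a log2 fold change of 1.51 ± 0.07 (SE, adjusted p = 5.43e-16, edgeR). Nkx2-1, which specifies the medial eminence, was at 141 ± 57.8 against 24.3 ± 16.3 CPM (2.43 ± 0.18). Lhx8, which marks cholinergic derivatives of the same eminence, was at 246 ± 101.1 against 22.4 ± 11.8 CPM (3.31 ± 0.20). Of 19 migration genes, 5 were called higher and 2, Shtn1 and the kinase Pak3 (−0.76 ± 0.11), lower. Among the higher were Erbb4 at 5878 ± 1905 against 2106 ± 415 CPM (1.46 ± 0.18), Efna5, an ephrin (1.17 ± 0.14), and the netrin receptor Dcc (0.61 ± 0.07). Sox6 was higher in 8 of 8, Nkx2-1 in 8 of 8, Lhx8 in 8 of 8 and Erbb4 in 8 of 8 embryos.

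Of 8 lateral and striatal factors tested, 3 were called lower with Lhx6 and none higher. Meis2 was at 2129 ± 806 against 7147 ± 813 CPM, lower in 8 of 8 embryos (−1.76 ± 0.20, adjusted p = 0.00123, edgeR). Foxp2, a factor of striatal projection neurons, was at 470.4 ± 254 against 1052 ± 143 CPM (−1.10 ± 0.24), and Isl1 at 22.4 ± 26.1 against 60.4 ± 25.7 (−1.18 ± 0.23). Bcl11b, a zinc finger factor of striatal neurons, went the other way, at 1042 ± 84.5 against 881 ± 62.01 CPM (0.29 ± 0.07, adjusted p = 0.0105, edgeR), under the fold needed for a call. Of the 21 tested Dlx and eminence factors, which include Meis2 and Isl1, 2 were called higher and 10 lower, among them the TALE factors Pbx3 (−1.13 ± 0.11) and Meis1 (−0.74 ± 0.12). Of 4 caudal factors tested, Nr2f2 was called lower (−0.60 ± 0.15), and Prox1 was not called (0.44 ± 0.14). Ccnd2 was at 151 ± 57.6 against 471 ± 81.3 CPM (−1.41 ± 0.20), while of 41 mitosis and 34 DNA replication genes none was called, with medians of 0.17 and 0.00. Of the mitosis genes, 34 had a positive log2 fold change, and 8 were higher and 0 lower at an unadjusted p under 0.05 (edgeR). At that p, 1 DNA replication gene was higher and 2 lower, beside 469 higher and 425 lower of all 7045 genes. So mitosis RNA was not shown to be level between the classes. Top2a was at 592 ± 165 against 579.9 ± 98.5 CPM (0.11 ± 0.10, adjusted p = 0.764, edgeR). Lowest in adjusted p among the lower genes were Cacna1c, a calcium channel (−1.36 ± 0.09), and Shtn1 (−1.15 ± 0.09).

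**Figure D3:**
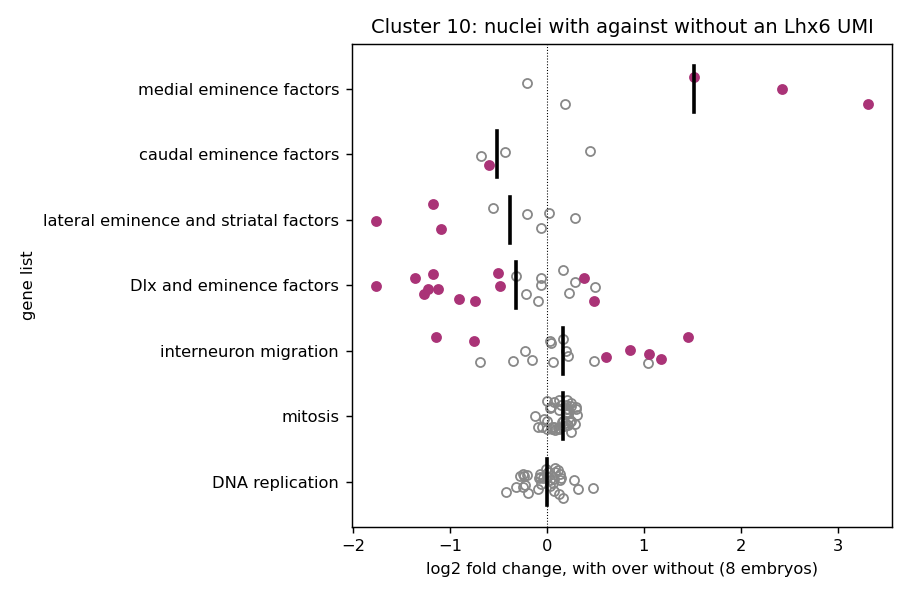
Log2 fold change (horizontal axis) of the tested members of gene lists (vertical axis) between Cluster 10 nuclei with and without an Lhx6 UMI, from sums per embryo of 8 embryos. Filled points passed the test, open points did not, and black bars mark list medians, which lie at 1.51 for medial factors and at −0.38 for lateral and striatal factors.

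The study asked whether prenatal EtOH changed the make-up of the cortex. Cluster 10 was 5.79% of nuclei in S1-1, 5.72% in S1-2, 6.28% in S2-1, 1.28% in S2-2 and 5.99% in S2-4. In EtOH embryos it ranged from 2.34% to 5.13%, with a median of 4.20%. Saline embryos averaged 5.01 ± 2.09% (SD, n = 5) and EtOH embryos 3.91 ± 0.983% (n = 6), a difference of −1.10 percentage points (exact permutation test, two-sided, p = 0.277; with labels exchanged within batches, p = 0.319). The groups overlapped only through S2-2. Without it the saline embryos lay at 5.94 ± 0.253%, all above the EtOH embryos, with a difference of −2.03 points. S2-2 was singled out by this same share, so no test is given for the embryos without it. Leaving out any 1 of the other embryos gave an exact permutation p of 0.230 to 0.484. In batch 1 alone the difference was −2.41 and in batch 2 alone −0.320 points (exact permutation p = 0.333, the smallest possible there, and 0.886).

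In S2-2, Cluster 3 was 4.44% of nuclei and the 7 interneuron clusters made 18.1%, under the 7.73% to 14.5% and the 24.5% to 37.7% of the other saline embryos. The number of Cluster 10 nuclei per Cluster 3 nucleus was 0.748 in S1-1, 0.632 in S1-2, 0.434 in S2-1, 0.289 in S2-2 and 0.774 in S2-4, and 0.522 to 0.700 in EtOH embryos. The log2 ratio averaged −0.889 ± 0.602 in saline embryos (SD, n = 5) and −0.749 ± 0.149 after EtOH (n = 6; exact permutation p = 0.630), with a difference of −0.13 in batch 1 and 0.33 in batch 2. Without S2-2 the saline mean was −0.663 ± 0.382 and the difference turned to −0.0854.

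Cell cycle phases were called with Seurat's scoring and the study's 9 S and 12 G2/M genes. Scores came from log-normalised counts of Clusters 10, 3, 17, 5 and 1 alone, while the study normalised its data with SCTransform. The shares may thus differ from those of the study. Between treatments, no difference in phase passed the adjusted test. G2/M was called in 32.8% of Cluster 10 nuclei of S1-1, 34.0% of S1-2, 27.2% of S2-1, 33.3% of S2-2 and 41.0% of S2-4, and in 20.6% to 33.7% (median 29.7%) of nuclei of EtOH embryos. The means were 33.7 ± 4.89% and 28.1 ± 5.70% (exact permutation p = 0.128, adjusted over 3 phases 0.195), with a difference of −5.54 points over all embryos, −6.74 in batch 1, −4.99 in batch 2 and −3.72 without S2-4 (exact permutation p = 0.257). S phase was called in 30.6 ± 2.19% and 35.1 ± 5.79% (exact permutation p = 0.130, adjusted 0.195), and G1 in 35.8 ± 6.22% and 36.7 ± 4.76% (p = 0.777 by the same exact permutation test). In nuclei thinned to 2000 UMIs, S phase gave p = 0.0368 by the exact permutation test, adjusted 0.104. The difference in S phase, 4.55 points over all embryos, was 2.63 without E2-3, 1.34 in batch 1 and 6.44 in batch 2, and that in G1 was 5.40 and −1.45. Postmitotic Cluster 1 still had 5.59 ± 1.85% of nuclei called G2/M and 12.7 ± 2.30% called S, the background of these calls, and depth differed between the groups. After thinning, the higher of the S and G2/M scores lay within 0.05 of the cut for G1 in 265 of 2358 Cluster 10 nuclei. Nuclei near the boundary between S and G2/M were not counted. The share with at least 3 mitosis UMIs was 55.2 ± 6.34% in saline and 53.1 ± 5.30% in EtOH embryos (exact permutation p = 0.558), with −5.59 points in batch 1 and −0.272 in batch 2, and turned to a difference of 0.202 points without S2-4.

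The share of nuclei with an Lhx6 UMI, compared after the data were seen, was 15.5% in S1-1, 21.99% in S1-2, 21.01% in S2-1, 5.36% in S2-2 and 13.5% in S2-4, and 10.2% to 17.6% (median 11.4%) in EtOH embryos. The means were 15.5 ± 6.70% and 12.6 ± 2.70% (exact permutation p = 0.348, adjusted over the 2 shares 0.558), a difference of −7.34 points in batch 1 and −0.144 in batch 2. The difference of −2.91 points became −5.43 without S2-2, −1.27 without S1-2 and −1.52 without S2-1 (exact permutation p = 0.686 without S1-2 and 0.638 without S2-1). S2-2 had the lowest of these shares, so no test is given without it.

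**Figure D4:**
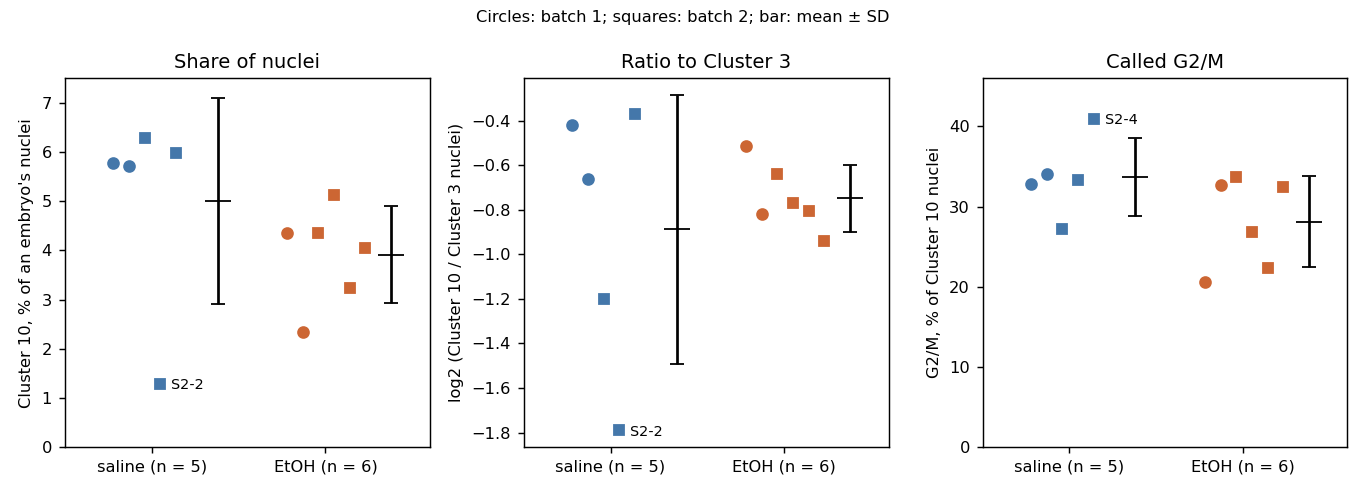
Cluster 10 as percent of the nuclei of an embryo, log2 ratio of Cluster 10 to Cluster 3 nuclei and percent of Cluster 10 nuclei called G2/M (vertical axes) in 5 saline and 6 EtOH embryos. Each point is an embryo, circles batch 1 and squares batch 2, with bars for mean ± SD. S2-2 lies at 1.28%, below every other embryo, and S2-4 has the highest G2/M share, 41.0%.

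Gene expression was compared between EtOH and saline embryos with edgeR on the sums per embryo. Of 9540 genes tested, 18 were called (0.189%), 7 higher (0.0734%) and 11 lower (0.115%), while in edgeR 1507 (15.8%) had an unadjusted p under 0.05, and the median log2 fold change was 0.00. None of the members of the 19 gene lists was called. Every saline embryo had a higher median of UMIs per nucleus than every EtOH embryo, and the part of depth in the calls was not tested. The calls were sensitive to single embryos. Leaving out S2-4 gave 960 calls of 9603 (10% of genes, 704 higher, 7.33%, and 256 lower, 2.67%), which included all 18. S2-4 was singled out by these same sums, so the rise in calls without it is no support for them. Leaving out any of S1-1, S1-2, S2-1, E1-1, E2-1, E2-2 or E2-3 gave 0, with 1037 to 1394 genes at an unadjusted p under 0.05 in edgeR. Summing counts by dam gave 0 calls (1359 genes at that unadjusted p), and batch 1 alone gave 433 (310 higher, 123 lower) and batch 2 alone 0 (606 genes at an unadjusted p under 0.05). More genes were higher than lower also with DESeq2 (74 and 30) and with voom and the dam as a random block (20 and 9). The balance of directions was thus not kept across these fits, of which the voom fit changed both method and blocking. With batch as a term 6 of the 18 kept their call, among them Mir124a-1hg, Dock2, Gm3227, Nectin3 and Npas3 (adjusted p = 0.0341 to 0.0390, edgeR), while the other genes named next had adjusted p of 0.0544 to 0.0696 there.

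Higher after EtOH was Mir124a-1hg (chr14:64587331-64593961, plus strand), the host RNA of the neuronal microRNA miR-124. It was at 198 CPM in S1-1, 218 in S1-2, 225 in S2-1, 250.1 in S2-2 and 293 in S2-4, and at 314 to 415 (median 355) in EtOH embryos. Its log2 fold change was 0.55 ± 0.09 (SE, adjusted p = 0.0302, edgeR) and the groups did not overlap. The genes here were chosen by small p in the same values, so lack of overlap, here and below, adds no support. The share of all tested genes without overlap was not counted, and Cenpf and Mcm7, which were not called, did not overlap either. Dock2 (chr11:34226815-34783892, minus strand), a guanine exchange factor best known from blood cells, was at 12.7, 11.3, 13.3, 22.5 and 21.9 CPM in the saline embryos in the same order and at 29.5 to 42.4 (median 35.6) after EtOH, a log2 fold change of 1.14 ± 0.20 (adjusted p = 0.0302, edgeR). Again no EtOH embryo lay within the saline range. Dock2 overlaps Fam196b on the other strand. The microglial markers Cx3cr1 and P2ry12 were at 6.50 to 17.3 and 2.25 to 12.1 CPM in saline and at 4.47 to 26.1 and 6.90 to 20.1 in EtOH embryos. Of the 15 non-neuronal markers none was at 0 over Cluster 10, their sum was 30.8 to 54.7 CPM in saline and 42.0 to 65.3 in EtOH embryos, only these 2 passed the filter on low counts, and their part in the Dock2 difference was not tested. Without S2-4, which these same sums singled out, P2ry12 was called higher (log2 fold change 1.11), 1 of the 2 tested. At 2.25 CPM, the lowest P2ry12 value rests on few UMIs.

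Lrrtm1, a leucine-rich synaptic adhesion protein, was at 31.98, 22.5, 20.2, 31.5 and 49.5 CPM in the saline embryos and at 51.1 to 75.1 (median 64.1) after EtOH, a log2 fold change of 0.98 ± 0.20 (adjusted p = 0.0483, edgeR). S2-4 was the saline embryo closest to the EtOH embryos. The other higher genes were Gm3227 (1.58 ± 0.26), 4930432K21Rik (1.07 ± 0.21), Gm26909 (1.62 ± 0.32) and Gm5441 (0.84 ± 0.16), predicted genes with no given function. On the other strand, Lrrtm1 overlaps Ctnna2, Gm3227 overlaps Celf4, Gm26909 overlaps Polb and Gm5441 overlaps Ptprn2. The genes 4930432K21Rik and Mir124a-1hg overlap none. The part of these overlaps in the counts was not tested. Gm5441 was at 63.96, 67.2, 60.98, 60.8 and 119 CPM in the saline embryos, so S2-4 lay just under the lowest EtOH embryo in a range of 124 to 165 (median 129). Gm26909 overlapped between the groups, as S2-4 was at 12.7 CPM and EtOH embryos at 10.9 to 35.7 (median 20.7). Its lowest saline value was 2.25 CPM, so few UMIs lie behind its fold change.

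Among genes that were lower, Nectin3 (chr16:46387706-46498525, minus strand), a cell adhesion protein, was at 78.9 CPM in S1-1, 71.5 in S1-2, 94.8 in S2-1, 96.9 in S2-2 and 76.8 in S2-4, and at 48.8 to 62.5 (median 53.6) after EtOH. Its log2 fold change was −0.68 ± 0.12 (adjusted p = 0.0302, edgeR), with every saline embryo above every EtOH embryo. Trpm3 (chr19:22139046-22995410, plus strand), a cation channel whose intron hosts a microRNA, was at 113, 109, 99.6, 151 and 59.3 CPM in the saline embryos and at 25.5 to 50.7 (median 36.4) after EtOH, a log2 fold change of −1.51 ± 0.24 (adjusted p = 0.0335, edgeR). S2-4 was again the saline embryo nearest to the EtOH range, without overlap. Npas3, a basic helix-loop-helix factor of the nervous system, was at 1632, 1681, 2068, 1861 and 1745 CPM against 1249 to 1481 (median 1388), a log2 fold change of −0.44 ± 0.08 (adjusted p = 0.0335, edgeR). Ddx3x, an X-linked RNA helicase of cortical development, was at 231, 219, 182, 266 and 187 CPM against 119 to 175 (median 140.4), a log2 fold change of −0.61 ± 0.11 (adjusted p = 0.0412, edgeR). Neither gene overlapped between the groups. The study combined male and female embryos, and the part of sex in the level of the X-linked Ddx3x was not tested.

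Further lower genes included Zbtb18, a transcriptional repressor of neuron differentiation, at 61.1 ± 5.19 against 40.3 ± 7.47 (−0.67 ± 0.14). In Zbtb18 the groups overlapped through E1-2 at 54.5 CPM. Memo1, a regulator of microtubules, fell by 0.40 and Zfp536, a zinc finger repressor, by 0.38 on the log2 scale. Also lower were Nr6a1os (−0.65 ± 0.13) and 6530403H02Rik (−1.92 ± 0.38), whose groups overlapped. The gene 6530403H02Rik was at 6.76 to 19.3 CPM in saline and 0 to 8.92 in EtOH embryos, so few UMIs lie behind its fold change.

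**Figure D5:**
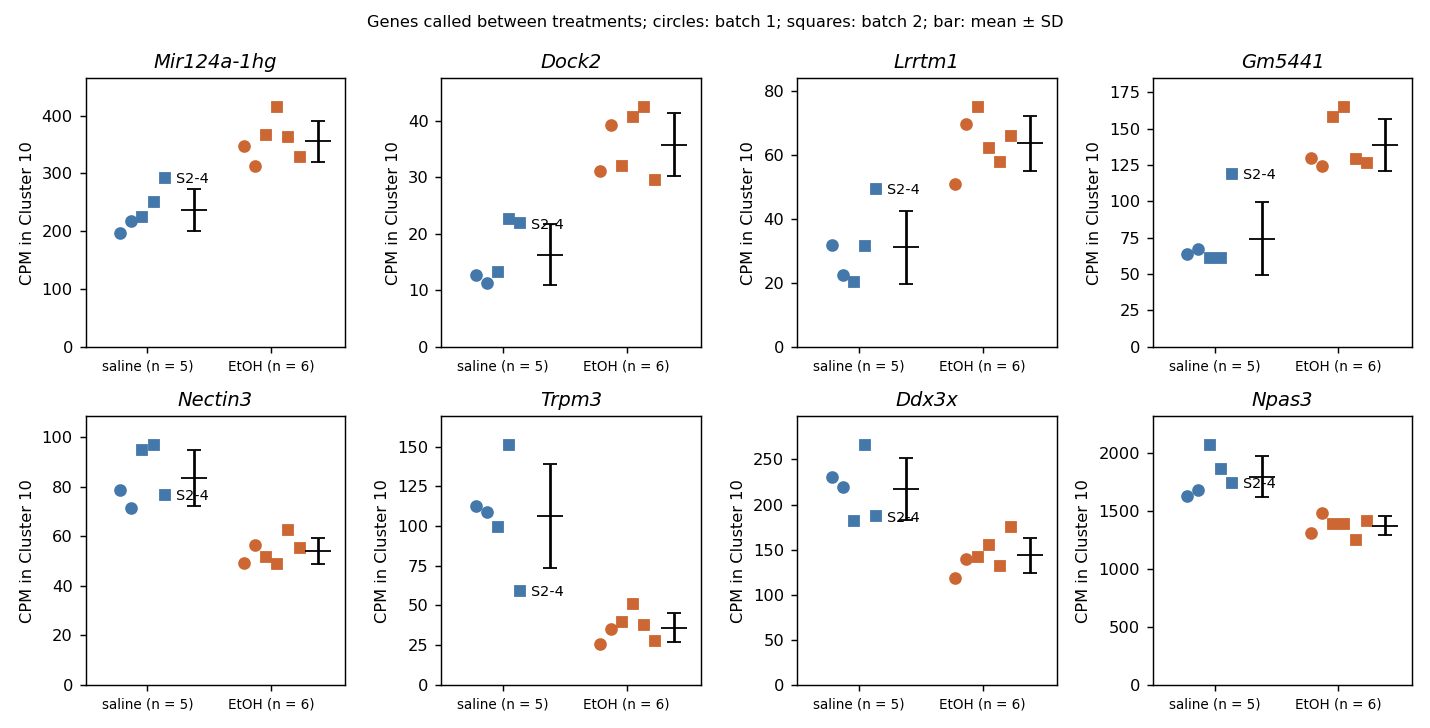
Level in Cluster 10 (CPM, vertical axes) of 8 of the 18 called genes in 5 saline and 6 EtOH embryos, with circles for batch 1, squares for batch 2 and bars for mean ± SD. In Trpm3, Lrrtm1 and Gm5441 the saline embryo S2-4 lies nearest to the EtOH embryos.

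Markers and lists of Cluster 10 were not called between treatments. Dlx6os1 was at 4231 ± 510.0 against 3949 ± 723 CPM (−0.16 ± 0.13), Dlx1 at 285 ± 43.2 against 225 ± 51.9 (−0.40 ± 0.15, adjusted p = 0.235, edgeR), Dlx2 at 45.6 ± 5.65 against 54.01 ± 11.6 (0.23 ± 0.14) and Top2a at 535 ± 118 against 578 ± 72.6 (0.06 ± 0.12). Gad1 and Gad2 had log2 fold changes of −0.03 ± 0.10 and −0.05 ± 0.10. The 44 mitosis genes had a median of −0.09, the 45 tested DNA replication genes 0.07 and the 8 tested medial factors −0.36. At an unadjusted p under 0.05 (edgeR), 1 mitosis gene was higher and 9 lower, and 7 DNA replication genes were higher and 0 lower. Of the medial factors, 0 were higher and 2 lower at that p, beside 832 higher and 675 lower of all 9540 genes. Cenpf, a kinetochore protein, was at 215 ± 20.3 against 152 ± 27.9 CPM (−0.53 ± 0.11, adjusted p = 0.0621, edgeR), and Sox11, a SoxC factor of young neurons, at 626 ± 135 against 407 ± 25.1 (−0.68 ± 0.14, adjusted p = 0.0779, edgeR). In Sox11, S2-4 was at 395 CPM and EtOH embryos at 377 to 443. Nkx2-1 was at 24.7 to 81.2 CPM in saline and 2.18 to 40.1 in EtOH embryos (−1.20 ± 0.42, adjusted p = 0.222, edgeR).

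Without S2-4, some list members were called. Of 8 medial factors tested, Nkx2-1 and Sox6 were called lower. Sp9 was among the members called lower in the Dlx list and Sp8 was called higher there, with Cenpf and Aspm lower in the mitosis list, and Sox11 lower in the early neuron list. Adarb2 was lower in the caudal list, Rbpj in the Notch list, and Dcc and Rnd3 in the migration list. Mcm7, a subunit of the replicative helicase, Hes1, a Notch target, Fabp7 of the radial glia list, Wnt7b, a Wnt ligand, and the microglial marker P2ry12 were higher. By list these were 4 of 22 Dlx, 2 of 5 caudal, 2 of 44 mitosis, 1 of 45 DNA replication, 3 of 21 Notch, 2 of 16 radial glia, 1 of 19 early neuron, 2 of 20 migration, 1 of 30 Wnt and 1 of 2 non-neuronal genes, some of them in more than 1 list. In the lateral, GABA, G1 and apoptosis lists, of 9, 5, 17 and 12 tested, 0 were called by edgeR, with 3, 0, 1 and 3 at an unadjusted p under 0.05. These counts stand against 10% of all genes called in that setting (edgeR) and were chosen after the data were seen. As S2-4 was singled out by the same sums, they describe the values and are no support for a treatment effect.

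The difference between the treatment effect in Cluster 10 and that in other clusters was tested directly, within embryos. Against Cluster 3, 1 of 11629 genes was called (0.0086%), Gm20754, whose log2 fold change with EtOH was 0.81 ± 0.13 higher in Cluster 10 (adjusted p = 0.00649, edgeR). Against Cluster 17, 0 of 10212 were called (0%), with 416 at an unadjusted p under 0.05 in edgeR. Against Cluster 5, 1 of 11467 was called (0.00872%). This was Trpm3, which changed by −1.51 in Cluster 10 and −0.48 ± 0.28 in Cluster 5, a difference of −1.02 ± 0.15 (adjusted p = 0.00361, edgeR). None of the other 17 genes called in Cluster 10 was called in these tests of the difference.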

How the data were processed

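Nuclei of embryonic mouse cortex were profiled with 10x Single Cell 3′ chemistry. The deposited files hold UMI counts per gene and nucleus, 1 table per embryo and cluster. Per the labels and methods, the authors used Cell Ranger with default and recommended parameters and the mm10 reference, filtered nuclei and genes, and clustered with Seurat after Harmony correction for batch and dam. Cluster membership and names were taken from the authors. Its version and its strand and intron settings are not spelled out in the sources used here.

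Counts were summed per embryo and tested with edgeR 4.0.16 (R 4.3.3, TMM, filterByExpr, quasi-likelihood test, Benjamini-Hochberg adjustment). A call was an adjusted p under 0.05 together with a fold below 0.8 or above the inverse of that, and tests of differences between clusters used the adjusted p alone. The comparisons within the cluster and between clusters had the embryo as a term. Shares were compared by two-sided exact permutation tests over embryos (NumPy 2.4.6). Phases were called with Seurat 5.3.0 and the study's S and G2/M genes. Where stated, nuclei were thinned to 2000 UMIs. Intervals and floors cover counting error alone. The fits were tested on simulated data. Promoters were read from RefSeq and searched on both strands.

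The members, gene lists and tests were chosen with earlier results of these data known. Named genes are the markers, the called genes of smallest adjusted p in each comparison, and called, highest or most abundant members of the 19 lists. Genes given for their levels in the cluster, for calls without S2-4, or for the Lhx6 split were chosen after their values were seen, as were the Lhx6 split, both shares of nuclei by UMIs, the fits within batches and the list counts without S2-4. Some genes that these rules name are not reported here. Alternatives were RLE size factors, DESeq2 1.42.0, no filter on low counts, a batch term, voom of limma 3.58.1 that blocked on dams, sums per dam, thinned counts, other class cuts and leaving out each embryo. Dams of the same number share a batch, which was fitted as a term, but the number of an embryo within its litter does not pair embryos across treatments.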

Additional observations from a re-analysis of the deposited data

Results flagged for a closer look

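Of 68 groups of embryos examined, 7 held 1 embryo far from the others of its group by Dixon's criterion, which chance gives in about 1 of 20 groups. The Cluster 10 share was 1.28% of nuclei in saline embryo S2-2 and 5.72% to 6.28% in the other saline embryos. On the first principal component of the Cluster 10 sums, saline embryo S2-4 lay at −9.14, with the other saline embryos between 15.7 and 20.6. EtOH embryo E1-1 had a median of 2767.5 UMIs per Cluster 10 nucleus against 4568 to 5061 in the other EtOH embryos.

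Among the genes called between treatments, Zbtb18 was at 54.5 CPM in EtOH embryo E1-2 and at 33.5 to 41.1 in the other EtOH embryos. Gm26909 was at 12.7 CPM in S2-4 and at 2.25 to 5.20 in the other saline embryos. Gm5441 was at 119 CPM in S2-4 against 60.8 to 67.2. Gm3227 was at 31.0 CPM in E1-1 against 17.7 to 21.5 in the other EtOH embryos.

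The EtOH effect differed between clusters for 2 genes by edgeR's test of the difference itself. For Gm20754 the log2 fold change was 0.81 higher in Cluster 10 than in Cluster 3. For Trpm3 it was lower in Cluster 10 than in Cluster 5, by −1.02.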

How the results depend on the processing

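The 18 calls between EtOH and saline (7 higher, 11 lower) were 18 with RLE size factors, 104 with DESeq2 (74 higher, 30 lower), 451 with no filter on low counts, 6 with batch as a term, 29 with voom and the dam as a random block (20 higher, 9 lower), 10 on thinned nuclei (of 5597 genes tested) and 0 with counts summed per dam (1359 genes at an unadjusted p under 0.05). Leaving out 1 embryo gave 0 to 960 calls, with 9 without E1-2, 4 without E2-4, 7 without S2-2, 960 without S2-4 and 0 without any of the other 7 (1037 to 1394 genes at an unadjusted p under 0.05). The cause of these shifts was not tested. Of 94 genes followed under these alternatives (82 of them on thinned nuclei), none of the 18 called changed sign, while 23 that were not called did so at least once. Among those in the text, Top2a (0.06) was at −0.0732 with counts summed per dam and at −0.0253 to 0.156 leaving out 1 embryo, and on thinned nuclei Gad1 (−0.03) was at 0.116 and Gad2 (−0.05) at 0.0887, with −0.0802 to 0.0191 and −0.114 to 0.0133 leaving out 1 embryo.

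The comparison by mitosis UMIs gave 1436 calls of 5435 genes tested (806 higher, 630 lower) and 626 of 2437 on thinned counts (26.4% and 25.7%). With no filter on low counts it gave 1456 higher and 517 lower of 21008 genes. The comparison by Lhx6 UMIs went from 314 to 495 calls with no filter. Against Cluster 3 the difference in EtOH effect gave 29 calls with no filter and 0 to 4 leaving out 1 embryo (0 without E2-1, 4 without E1-2, 3 without S2-4, 2 without E2-2, E2-4 or S2-2). Against Cluster 17 it gave 10 with no filter. Against Cluster 5 it gave 3 with RLE size factors, 42 with no filter, 2 with the interaction of cluster and batch, and 0 to 4 leaving out 1 embryo (0 without E2-1, 4 without E1-2 or S1-2, 3 without S2-2, 2 without E2-4 or S2-4).

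Leaving out 1 embryo, the difference in share ranged from −2.03 (without S2-2) to −0.781 points and that in the log2 ratio to Cluster 3 from −0.0854 (without S2-2) to 0.27. The difference in G1 share, 0.988 points, was −0.806 on thinned nuclei and −1.12 to 3.10 leaving out 1 embryo, with −0.123 without E2-2 and −1.12 without S2-4. The difference in G2/M share ranged from −7.15 (without S2-1) to −3.72 points (without S2-4). The difference in S phase share ranged from 2.63 (without E2-3) to 5.76 points, and that in the share with an Lhx6 UMI from −5.43 (without S2-2) to −1.27 (without S1-2). The share with at least 3 mitosis UMIs ranged from −3.74 to 0.202 points (without S2-4). No paired analysis was possible because the number of an embryo within its litter pairs no embryos of different treatments. Dams of the same number share a batch, and batch as a term gave the 6 calls above.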
